A study of Mus musculus with 6 samples.

Results

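*Rora*, the gene of the nuclear receptor RORα, held 21 of the 18333 differentially methylated regions (DMRs) that were listed between lung endothelial cells (EC) of infant and young adult mice. Its members were chosen by position, as the DMRs of the list whose midpoint lay in the *Rora* gene body (mm10 chr9:68653786-69388246, plus strand, 734.461 kb). The gene itself was chosen from the same list for its many gains of methylation, so its counts and levels are a description and were not tested. Of the 21 DMRs, 19 gained methylation from infant to young adult EC (90.5%), beside 54.1% of all listed DMRs, and 2 lost methylation, beside 45.9%. Among the 4 *Rora* DMRs with at least 4 CpGs the gains were 2 (50%), beside 34.8% of all DMRs of that kind. The 19 gain DMRs had a median methylation of 63.1% in infant EC and of 84.6% in young adult EC, and their differences ran from 10.2 to 34.6 percentage points with a median of 21.5 points.

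The list came from T-WGBS, a whole genome bisulfite sequencing by tagmentation, in which a transposase fragments the DNA and adds the adaptors, and bisulfite then converts unmethylated cytosines. EC were sorted by FACS from lungs of untreated C57BL/6N mice, described as female in the methods, as live cells positive for CD31 and CD34 and negative for PTPRC, LYVE1, LY76 and PDPN, with 3 independent samples from infant mice (8 to 10 days old) and 3 from young adult mice (8 to 12 weeks old). For each DMR the list gives 1 mean per age group, as a fraction of methylated calls, so that no spread between samples, no error and no per-sample value can be printed, and the depth behind a DMR is unknown. To be listed by the authors, a DMR needed 3 or more consecutive CpGs that each passed their test, and age group means at least 10% apart.

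A list of methylation differences holds no marker levels, so the sorted cell type could not be checked here. In DNA of a sorted population, a change of methylation within cells and a change in the mix of cells cannot be told apart.

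RORα is a nuclear receptor that binds ROR response elements as a monomer and activates transcription there. It competes at these elements with the repressors REV-ERBα and REV-ERBβ, and through *Arntl*, which encodes the clock activator BMAL1, it forms a stabilising loop of the circadian clock. Loss of RORα in the staggerer mouse is best known for its cerebellar defect. In mammalian cells CpGs in gene bodies are usually methylated, CpG-dense promoters are usually free of methylation, and active enhancers in introns tend to lie at intermediate or low levels.

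The DMRs are numbered from 1 to 21 along the direction of transcription, and positions count from 1 at the first base of the chromosome. The sequences below, read from the GRCm38 (mm10) plus strand, are those of the 5 largest gains (DMRs 3, 4, 5, 14 and 19), of both losses (DMRs 8 and 13) and of the gain with the lowest infant level (DMR 9). CpGs are in capitals, and they are the only positions whose methylation entered the means.
DMR 3, chr9:68805921-68806128, gain: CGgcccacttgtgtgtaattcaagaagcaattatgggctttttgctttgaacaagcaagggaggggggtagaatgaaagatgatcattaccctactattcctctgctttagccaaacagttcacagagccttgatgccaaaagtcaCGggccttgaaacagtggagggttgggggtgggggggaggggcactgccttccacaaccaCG
DMR 4, chr9:68806348-68806443, gain: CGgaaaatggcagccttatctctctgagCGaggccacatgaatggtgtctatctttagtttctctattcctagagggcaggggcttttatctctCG
DMR 5, chr9:68825119-68825379, gain: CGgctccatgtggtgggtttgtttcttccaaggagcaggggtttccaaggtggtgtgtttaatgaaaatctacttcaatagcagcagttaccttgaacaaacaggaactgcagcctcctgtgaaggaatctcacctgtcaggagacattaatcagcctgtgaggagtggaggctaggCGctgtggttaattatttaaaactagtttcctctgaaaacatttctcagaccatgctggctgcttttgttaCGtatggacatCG
DMR 8, chr9:68876927-68876992, loss: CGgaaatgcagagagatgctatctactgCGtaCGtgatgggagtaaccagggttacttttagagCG
DMR 9, chr9:68888989-68889019, gain: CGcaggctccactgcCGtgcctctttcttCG
DMR 13, chr9:69015129-69015429, loss, first 299 bases: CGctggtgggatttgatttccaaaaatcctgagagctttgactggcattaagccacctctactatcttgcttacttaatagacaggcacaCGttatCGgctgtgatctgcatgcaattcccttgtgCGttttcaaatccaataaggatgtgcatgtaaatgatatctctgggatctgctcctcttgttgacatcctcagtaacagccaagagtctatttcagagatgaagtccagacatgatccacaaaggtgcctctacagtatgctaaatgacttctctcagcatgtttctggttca
DMR 14, chr9:69022947-69023175, gain: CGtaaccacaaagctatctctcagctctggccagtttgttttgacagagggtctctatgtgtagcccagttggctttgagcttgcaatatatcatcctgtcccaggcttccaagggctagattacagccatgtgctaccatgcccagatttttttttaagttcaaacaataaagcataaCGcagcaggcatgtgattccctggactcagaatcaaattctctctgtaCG
DMR 19, chr9:69291782-69291802, gain: CGCGaCGccagttgtatttCG

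The sequences show how few CpGs carry each value. Of the 19 gain DMRs, 17 (89.5%) held the minimum of 3 CpGs, beside 78.5% of all gain DMRs, and the 21 DMRs together held 68 CpGs, or 0.864% of the 7872 CpGs of the gene body. They covered 3072 bp, or 0.418% of its length. DMRs 5, 8 and 19 held 4 CpGs each and DMR 13 held 5, of which the last lies at the end of the region beyond the printed bases. The gain DMRs were between 21 and 369 bp wide with a median of 109 bp, and the median of all gain DMRs was 123 bp. In DMR 14 the 3 CpGs are spread over 229 bp, whereas the 4 CpGs of DMR 19 lie within 21 bp.

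The *Rora* DMRs lay mostly in the first intron. By the longest curated RefSeq transcript, NM_013646 with 11 exons, intron 1 (542.102 kb) held 17 of the 21 DMRs (81.0%), 15 gains and both losses, and it takes up 73.8% of the gene body and 70.1% of its CpGs. Intron 2 (152.027 kb) held 2 gains. Exons 5 and 11 held 1 gain each, so that exons, which make up 1.48% of the length and 2.26% of the CpGs, held 9.52% of the DMRs. The other introns and exons held none.

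The first 88.3 kb of the gene held no DMR. This stretch includes the start of NM_013646, the whole of the short transcript NM_001289917, which shares that start and ends after 11.181 kb, and the first 10 kb with 218 CpGs, beside a median of 104 CpGs per 10 kb of the gene. DMRs 1 to 15 then followed each other over 298.6 kb, from 88.4 to 387.0 kb past the start. The widest gap, 98.2 kb, separated DMR 15 from DMR 16, and the last 6 DMRs were spread over 244 kb. Over the 20 gaps the median was 19.1 kb and the smallest, between DMRs 3 and 4, was 0.22 kb. With neighbours at most 10 kb apart joined, the 21 DMRs formed 17 runs, and with a limit of 50 kb they formed 5. Most DMRs thus stood alone at the shorter distance and joined at the longer one.

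**Figure D1:**
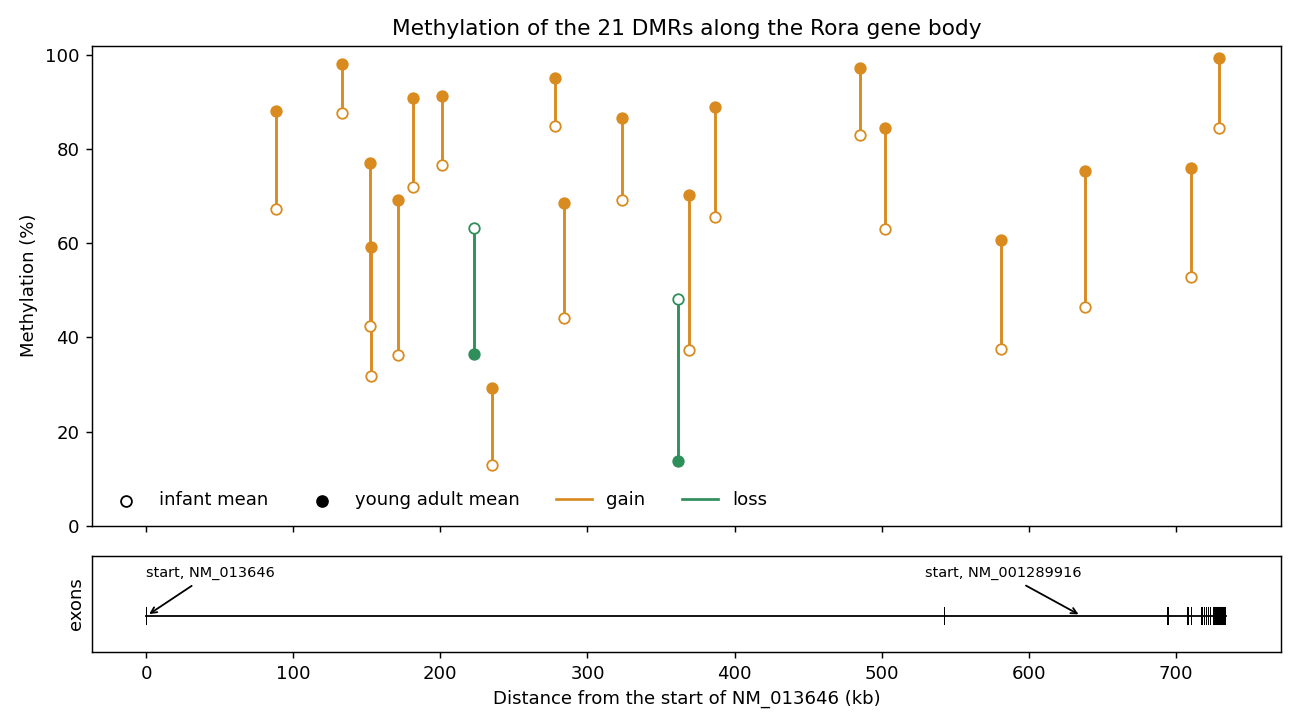
Mean methylation (%) of the 21 *Rora* DMRs against the distance from the start of NM_013646 (kb), with 1 symbol per age group and DMR joined by a line. The exons of NM_013646 are drawn beneath, with the start of NM_001289916 marked. The lines of 19 DMRs point up and those of 2, at 223.2 and 361.5 kb, point down, and no DMR lies in the first 88.3 kb.

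In the 5′ part of intron 1, the first DMR of the gene (DMR 1, chr9:68742089-68742197), which is also the nearest to the start of NM_013646, rose in mean methylation from 67.3% (infant EC) to 88.1% (young adult EC). In the values that follow, the infant mean always stands first. DMR 2 (chr9:68786636-68787004), the widest of the gene, went from 87.8% to 98.2%. This was the highest infant level among the *Rora* DMRs, and the difference of 10.4 points was next to the smallest. DMRs 3 and 4, only 0.22 kb apart at 152.2 and 152.6 kb, moved together. DMR 3 went from 42.4% to 77.0%, the largest gain of the gene at 34.6 points, and 95.4% of all gain DMRs of the list were smaller. DMR 4 went from 31.7% to 59.3%, a gain of 27.6 points. Joined as 1 region, as neighbours within 500 bp, this pair would leave 18 gain DMRs.

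The next 5 DMRs lay inside the predicted long non-coding RNA gene *Gm31262*, which is on the same strand within intron 1 (chr9:68823368-68923966), and 4 of them gained methylation. DMR 5 rose from 36.3% to 69.3%, or by 33.0 points. DMR 6 (chr9:68835208-68835451) went from 71.9% to 90.8% and DMR 7 (chr9:68854793-68855011) from 76.6% to 91.3%. Both began at the higher levels and gained less than DMR 5. DMR 8 was the first of the 2 losses and fell from 63.3% to 36.6%, a difference of -26.7 points. DMR 9, 12 kb further on, began at 13.0% and reached 29.2%. It was the only gain DMR of the gene with an infant level under 20%, and its young adult level was also the lowest among the 19 gains. Of all gain DMRs, 14.6% began under 20%.

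In the middle of intron 1, DMR 10 (chr9:68931907-68931967) had the smallest gain of the gene, 10.2 points from 85.0% to 95.2%, just inside the 10 points that the authors required. DMR 11 (chr9:68937745-68937944) lay 5.78 kb from it and rose from 44.1% to 68.7%. The neighbouring pair thus ended at different levels. DMR 12 (chr9:68976998-68977043) went from 69.2% to 86.6%. The second loss, DMR 13, followed at 361.5 kb and went from 48.2% to 13.6%, a difference of -34.5 points and the largest in size among the losses of the gene. It was the DMR with the most CpGs, and its young adult level was the lowest of the 21. DMR 14, at a distance of 7.52 kb, moved the opposite way, from 37.4% to 70.2%. The loss thus began above the gain and ended far below it.

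Toward the 3′ end of intron 1 lay 3 more gains. DMR 15 (chr9:69040641-69040854) went from 65.5% to 88.9%. DMR 16 (chr9:69139009-69139149), beyond the widest gap, went from 83.1% to 97.3%, and DMR 17 (chr9:69156372-69156461) from 63.1% to 84.6%. All of them ended above 80%. Over the 15 gain DMRs of intron 1 the median rose from 65.5% to 86.6%, and the median difference was 20.8 points.

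The 4 gain DMRs beyond intron 1 had an infant median of 49.7%, a young adult median of 75.8% and a median difference of 23.2 points. DMR 18 (chr9:69234584-69234646) in intron 2 went from 37.6% to 60.7%. DMR 19 lay 1.95 kb past the first base (69289841) of NM_001289916, a shorter transcript that begins inside the gene, and so in the first intron of that transcript, and it rose by 28.8 points from 46.6% to 75.4%. It was the DMR nearest to a transcription start of *Rora*, and with 27 CpGs in the surrounding 1 kb it had the most CpG-dense surroundings of the 21. The 10 kb of the gene that contain this second start held 239 CpGs, the most of any 10 kb of the gene, and DMR 19 was the only DMR there.

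DMR 20, in coding exon 5, went from 52.8% to 76.1%, a gain of 23.3 points. It was the only DMR of the gene in coding sequence. It also began 2 bp from the start of *Gm15511*, a long non-coding RNA gene on the opposite strand. DMR 21 (chr9:69383027-69383093), in the 3′ UTR in exon 11, went from 84.5% to 99.4%. This was the highest young adult level of the gene, and DMR 21 was the last DMR, 5.19 kb from the gene end.

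**Figure D2:**
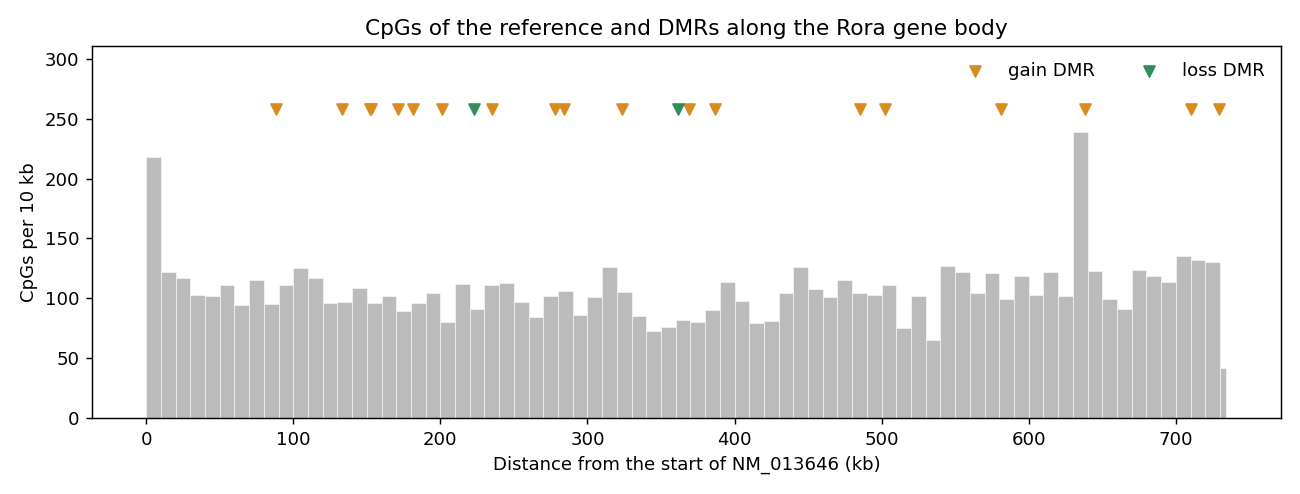
Number of CpGs of the reference per 10 kb of the gene body (grey, the last bin is shorter) with the positions of gain and loss DMRs marked, against the distance from the start of NM_013646 (kb). The first 10 kb hold 218 CpGs and no DMR, and the bin of the second start holds 239 CpGs and 1 DMR, whereas bins with a DMR have a median of 99 CpGs and those without a median of 104.

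DMRs were found in 19 of the 73 full 10 kb bins of the gene, and these bins had a median of 99 CpGs, beside 104 in the bins without. The number of CpGs available in a bin was thus close to the same with and without DMRs. The coverage per CpG, which decides where a DMR can be called, was not used here, so its part in the positions was not tested.

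Gain DMRs that began at a high level ended near full methylation, and those that began at intermediate levels gained more points and stayed intermediate. The 4 gain DMRs with an infant mean over 80% (DMRs 2, 10, 16 and 21) ended between 95.2% and 99.4% and gained 10.2 to 14.9 points. The 6 that began between 60 and 80% (DMRs 1, 6, 7, 12, 15 and 17) ended between 84.6% and 91.3% and gained 14.7 to 23.4 points. The 8 that began between 20 and 60% (DMRs 3, 4, 5, 11, 14, 18, 19 and 20) ended between 59.3% and 77.0% and gained 23.2 to 34.6 points. In *Rora* the 3 groups did not overlap in their young adult levels, so the order of the levels in infant EC was kept between the groups. A DMR that begins near 100% has little room to gain, which bounds the differences of the first group. The required difference of 10 points also sets a floor under the young adult level of that group. Over all gain DMRs, those that began over 80% ended at 90.3% or more. Those from 60 to 80% ended between 72.1% and 99.3%, and those from 20 to 60% between 33.2% and 91.6%. In the whole list the 3 groups thus overlapped. The median gains of all gain DMRs in the same 3 groups were 12.7, 17.4 and 25.1 points. Those of *Rora* were 12.3, 19.8 and 28.2 points, so the order of the median gains was that of the whole list.

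Each gain was also divided by the part that was not methylated in infant EC. This share of the remaining room that was filled had a median of 84.6% in the group that began over 80% (68.1% to 96.2%), of 63.1% in the group from 60 to 80% (56.4% to 67.9%) and of 50.6% in the group from 20 to 60% (37.1% to 60.1%). DMR 9, which began lowest, filled 18.6% of its room, and DMR 21 filled 96.2%. The required difference of 10 points sets a floor under this share that rises with the infant level, so part of this order is fixed by the rule of the list. DMR 10 had to fill at least 66.8% to be listed and filled 68.1%, and DMR 2 had to fill at least 81.9% and filled 85.4%. Over all gain DMRs the medians in the same groups were 78.7%, 61.3% and 43.8%, in the same order as in *Rora*.

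**Figure D3:**
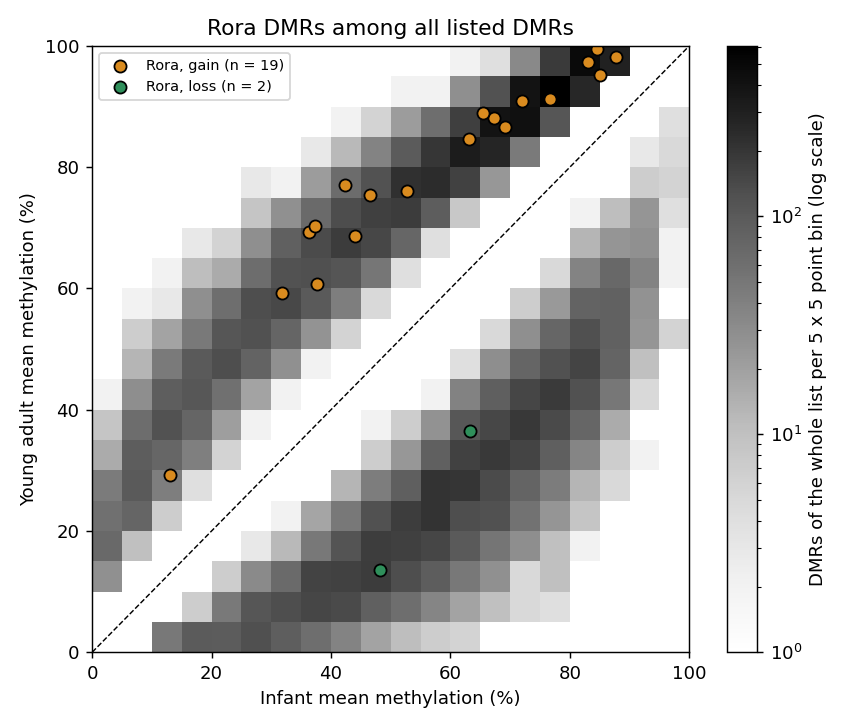
Young adult mean methylation against infant mean methylation (%), with the 21 *Rora* DMRs as coloured points on a grey map of the number of DMRs of the whole list per bin (log scale), and a dashed line of equal levels. The 19 gain DMRs lie above the line, 10 of them over 80% in young adult EC, and the losses at 36.6% and 13.6% lie below it.

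Set beside all 9911 gain DMRs, those of *Rora* were like the rest in the size of the gain, and their median levels were somewhat higher within a wide spread. The median difference was 21.5 points in *Rora* and 20.4 points over all gain DMRs, with quartiles of 15.6 and 26.1 points against 16.0 and 26.1 points. In *Rora* 11 of 19 gain DMRs (57.9%) differed by at least 20 points, beside 52.4%, and 3 (15.8%) by at least 30 points, beside 13.0%. The infant median was 63.1% against 54.8% and the young adult median 84.6% against 78.1%. The middle 50% of the *Rora* gain DMRs, from 40.0% to 74.3% in infant EC and from 69.8% to 91.1% in young adult EC, included the medians of all gain DMRs. A young adult mean over 80% was found in 10 of the 19 (52.6%), beside 46.3%, and 4 (21.1%) had begun over 80%, beside 10.4%. At the same time 8 (42.1%) had begun in the range from 20 to 60% used above, beside 4122 of the 9911 gain DMRs. None of these differences was tested, because the gene was chosen for its gains. The 2 losses, with a median of -30.6 points, lay near the median of all losses, -32.5 points.

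Among genes, *Rora* ranked high by the number of gain DMRs and low by their density. It shared the second rank by number with *Hspg2*, which encodes the basement membrane proteoglycan perlecan and had 19 gains and 0 losses in 101.8 kb. *Magi1*, which encodes a scaffold protein of cell junctions, had more, with 22 gains and 1 loss. *Lrmda*, the longest of these genes at 1036 kb, had 17 gains and 2 losses, *Foxp1*, a forkhead transcription factor gene, 16 and 8, and *St6galnac3*, a sialyltransferase gene, 16 and 5. At least 1 gain DMR was found in 11.4% of the 26182 genes, and more than 5 DMRs in 1.81%. Among the 22 genes with at least 10 gain DMRs, *Rora* had the second longest gene body and was 18th by gain DMRs per 100 kb (2.59, beside a median of 3.61) and 19th by the share of its CpGs that lay in gain DMRs (0.749%, beside a median of 1.21%). The share of gains among its DMRs was also common in that set, where the median share was 90.9%.

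**Figure D4:**
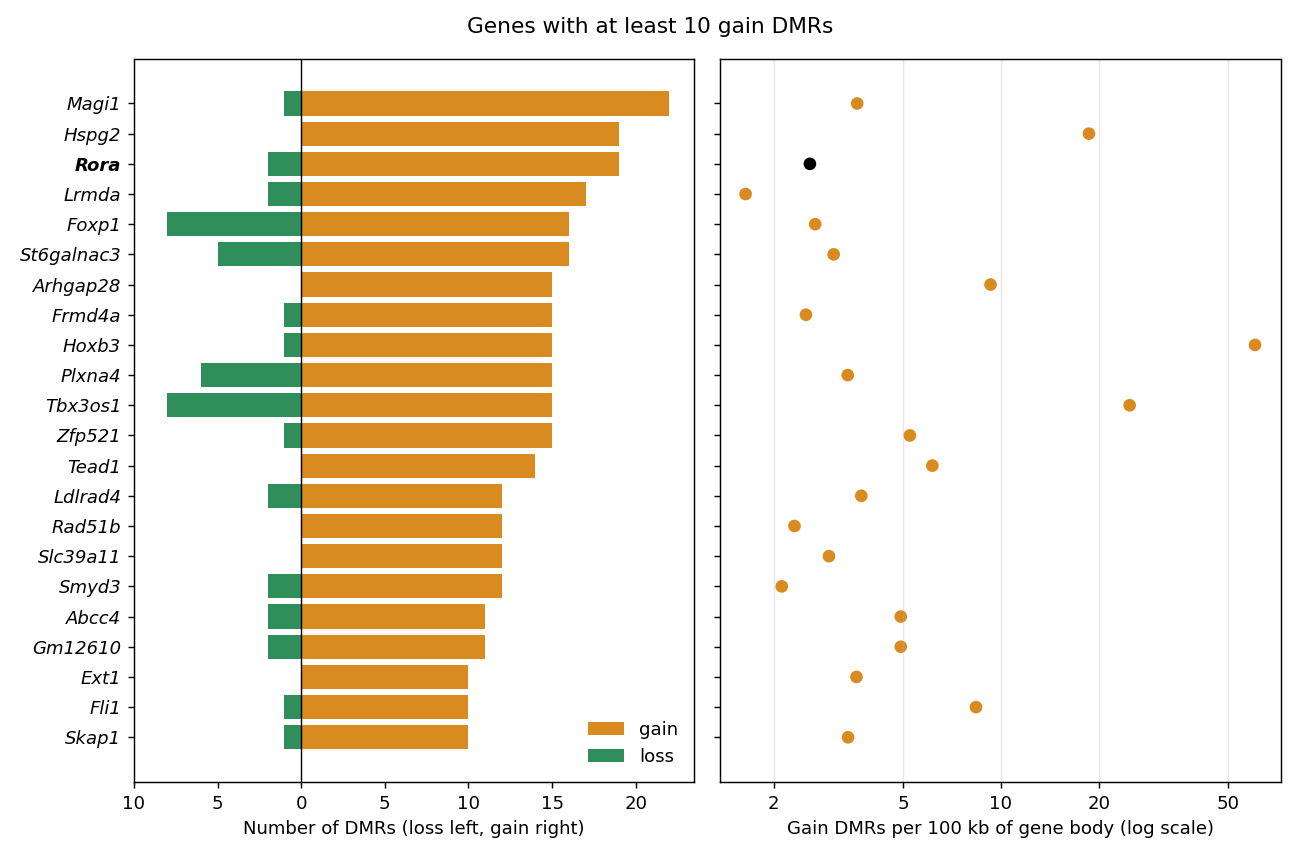
The 22 genes with at least 10 gain DMRs, with the number of loss DMRs to the left and of gain DMRs to the right (left panel) and the number of gain DMRs per 100 kb of gene body on a log axis (right panel, *Rora* in black). *Rora*, with 19 gains and 2 losses, is near the top by number but at 2.59 per 100 kb is near the lower end of a range from 1.64 to 60.5.

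The median gains of *Magi1* and *Lrmda*, the other long genes at the top of this count, were close to that of *Rora*, whereas the levels of *Magi1* were lower. The gain DMRs of *Magi1* had an infant median of 40.7%, a young adult median of 68.0% and a median difference of 23.2 points, and those of *Lrmda* had 56.2%, 83.6% and 23.3 points. By the distance between the pairs of medians (infant and young adult, in percentage points), the genes most like *Rora* were *Smyd3* at 5.83 points (68.5% and 86.8%), *Lrmda* at 7.05, *Zfp521* at 7.68 (69.5% and 88.9%), *Ldlrad4* at 9.18 (57.2% and 77.6%) and *St6galnac3* at 10.4 (54.5% and 78.9%). *Magi1* lay 28.0 points away. *Foxp1*, with medians of 11.6% and 35.5%, was 71.2 points away. This likeness rests on 2 medians per gene over 12 to 17 gain DMRs in the 5 genes.

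The flanks of *Rora* held few DMRs. The nearest DMR upstream lay 388.9 kb before the gene and was a gain, from 54.3% to 72.7%. The nearest downstream lay 69.7 kb past the gene end, in *Anxa2*, which encodes the membrane-binding protein annexin A2, and fell from 12.4% to 1.29%. The next downstream, at 229.7 kb, rose from 71.4% to 90.7%. The neighbouring genes *4930502A04Rik*, 133.6 kb upstream, and *Ice2*, 9.75 kb downstream, a gene of the little elongation complex, held none. No listed DMR lay in the bodies of these neighbouring genes or at the start of *Rora*.

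RORα works with a set of clock proteins and cofactors, and 26 further genes of this set were examined for DMRs in their gene bodies. At least 1 gain DMR was found in 9 of the 26 (34.6%), beside 11.4% of all genes, and at least 1 loss DMR in 9 (34.6%), beside 8.46%. The genes of the set had a median length of 38.0 kb, and all genes 13.5 kb, and longer genes have more room for DMRs. The share that length contributes was not tested. The 26 genes held 14 gain and 14 loss DMRs, so that 50% were gains, near the 54.1% of all listed DMRs. *Rora* alone held 19 gain DMRs, more than these 26 genes together, but it was chosen for its gains and is 734.461 kb long.

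*Rorb*, which encodes RORβ, held 1 gain DMR, from 74.2% to 91.2%. *Nr1d1*, the gene of the opposing repressor REV-ERBα, held 1 loss, from 56.4% to 21.8%, and *Nr1d2*, that of REV-ERBβ, held none. These receptors that share the response elements with RORα thus had 1 DMR each at most.

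The activators of the clock were mixed. *Arntl*, the target that RORα and the REV-ERB proteins compete for, had 2 gains (69.7% to 90.9% and 70.0% to 88.1%) and 2 losses (53.0% to 20.3% and 39.5% to 8.85%). *Clock*, which encodes the partner of BMAL1, held 1 loss over 7 CpGs, from 32.6% to 6.92%. *Npas2*, a relative of *Clock* that can take its place, held 2 gains and 1 loss. Among the genes of the repressing limb, *Per2* held 4 losses of -29.0 to -40.7 points and no gain, a pair of which lay close enough to count as 1 region if neighbours within 500 bp were joined, and *Per1*, *Per3*, *Cry1* and *Cry2* held no DMR.

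Of the genes of the D-box factors, *Hlf*, an activator, held 2 gains (68.7% to 86.0% and 33.1% to 60.6%), and *Dbp*, *Tef* and the repressor *Nfil3* held none. The repressors *Bhlhe40* and *Bhlhe41* held none either, and *Ciart* held 1 gain. Among the genes of the kinases that act on the stability of PER proteins, *Csnk1e* held 1 gain and *Csnk1d* 1 loss. The cofactors again differed from each other. *Ncor1*, a corepressor gene, held 2 gains, whereas *Hdac3*, which encodes the deacetylase that works with that corepressor, held 1 loss. The coactivator gene *Ppargc1a* held 2 gains (83.3% to 94.9% and 84.1% to 96.7%), *Ncoa3* 2 losses, *Ncoa2* 1 of each and *Ncoa1* none.

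**Figure D5:**
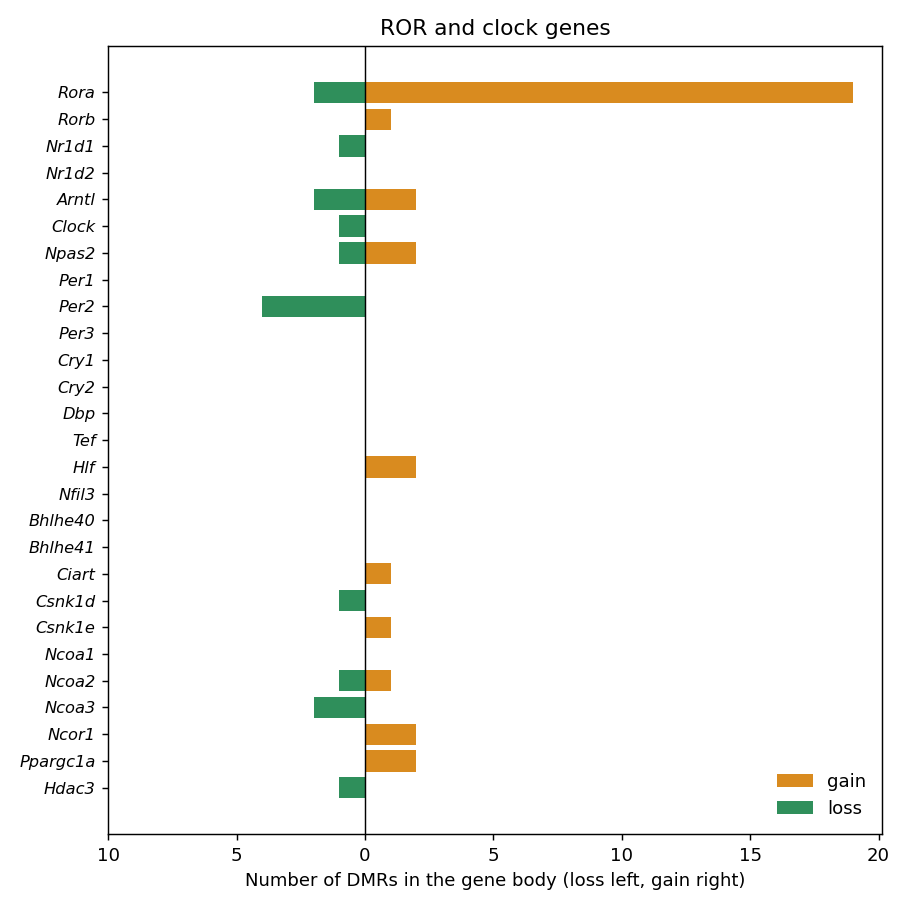
Number of loss DMRs (left) and gain DMRs (right) in the gene bodies of *Rora* and the 26 further ROR and clock genes. *Rora* has 19 gains and 2 losses, *Per2* has 4 losses, and 11 genes have no DMR.

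Sequence motifs were searched on both strands in windows of 200 bp centred on each DMR. The nuclear receptor half-site AGGTCA was found in 5 of the 21 windows (23.8%), all of gain DMRs (6, 9, 11, 17 and 20), beside 13.1% of the windows of all DMRs and 12.1% of windows tiled over the *Rora* gene body. Its longer form TAGGTCA, the half-site with the preceding T that RORα prefers, which overlaps AGGTCA by construction, was in 0 windows, beside 1.91% and 1.93%. The clock E-box CACGTG was in 0 windows, beside 4.19% and 2.89%. The D-box TTANGTAA was in 2 windows (9.52%), those of the loss DMR 13 and the gain DMR 18, beside 1.89% and 2.40%. These matches are a description of letters in the windows and say nothing of binding.

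The motifs of factor families known from EC were found in 1 or 2 windows each. The ETS motif AGGAAGT was found in 2 windows (9.52%, DMRs 11 and 18), beside 6.19% of all DMR windows and 4.68% of the windows tiled over the gene, and the GATA motif AGATAA in 1 (4.76%, DMR 4), beside 11.7% and 12.1%. The AP-1 motif TGANTCA was in 2 windows (9.52%, DMRs 7 and 17), beside 6.55% and 6.56%. With 21 windows, each window counts for 4.76%, so these shares differ from the background by a few windows at most. When the DMR itself was searched in place of the window, GATA was in 2 DMRs (9.52%, beside 9.41% of all DMRs), AGGTCA in 3 (14.3%, beside 10.4%) and the D-box in 1 (4.76%, beside 1.66%), so the differences from the background in GATA and AGGTCA depended on the stretch searched.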

How the data were processed

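T-WGBS reads of 3 infant and 3 young adult samples were processed by the authors, who trimmed adaptors with SeqPrep, aligned with BWA to bisulfite-converted mm10, removed duplicates with Picard, kept bases of Phred quality of at least 20 and left out 9 bp next to the tagmentation site. The submitters' processing notes name bcl2fastq 1.8.4, BWA 0.6.1 and R 3.2.2. DMRs were called by the authors with bsseq without smoothing, from CpGs with p under 0.05 in a t-test and a coverage of 8-fold or more in 2 or more of the 3 samples per age. The deposited values are fractions, which the authors averaged per DMR and age group. Because the authors picked DMRs by this test, the differences are those of selected regions.

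Here the fractions were turned into percent and the infant mean was subtracted from the young adult mean. The deposited positions count from 0, at the C of the first and last CpG, and with this allowed for, a CpG of the reference stood at either end of all 18333 regions. Introns, exons and the gene bodies of 26182 genes were taken from curated RefSeq transcripts on GRCm38, and CpGs and motifs were counted in its sequence, with Python 3.11.15, numpy 2.4.6 and pandas 2.3.3. The placing of DMRs in exons and introns, the motif search and the counting of runs were tested on simulated data. The other steps were not.

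The gene, its members and the lists were chosen with earlier results of these data known. Named were *Rora* with each of its DMRs, the ROR and clock list (without 3 genes of it that are not reported here), *Magi1* and *Lrmda*, the 5 genes with the most gain DMRs, the 5 of at least 10 gain DMRs with the nearest medians, and the nearest gene to either side. DMRs were singled out as the 5 largest gains, the losses, those with 5 CpGs or more, in exons, nearest a start or nearest the 10 point threshold. DMR 9, *Anxa2* and the non-coding genes inside *Rora* were named after their values were seen. Alternatives were a difference of at least 20 points, at least 4 CpGs, other rules of membership, merging within 500 bp, other gaps for runs, other transcripts, other ranks and motif matches within the DMR. Reads, values per sample and expression data were not used here.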

Additional observations from a re-analysis of the deposited data

How the results depend on the processing

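Of 56 alternative values, 40 moved by less than the spread used for each result and 16 moved by more. For shares and medians that spread was an interval over the DMRs of the gene, from 37.6% to 76.6% for the infant median. Such an interval is wide and does not measure the spread between samples. Membership by overlap and a gene body with 10 kb to either side took in the same 21 DMRs, so their values could not move. With a difference of at least 20 points, *Rora* held 13 DMRs, 11 gains and 11 runs, and the infant median of the gains was 44.1%. With at least 4 CpGs, it held 4 DMRs, 2 gains and 4 runs, since 17 of the 19 gain DMRs have 3 CpGs. The share of gains among these 4 was 50%, so that gains no longer prevailed, beside 34.8% of all DMRs of that kind. The median gain was 30.9 points and the infant median 41.4%. Both infant medians lie under the 54.8% of all gain DMRs without these limits. The medians of all gain DMRs under the same limits are not given here, so this is not a like comparison. By the nearest promoter in the deposited list, 0 DMRs, 0 gains and 0 runs belonged to *Rora*, and no share or median could be had. A gap of 50 kb gave 5 runs. Of the DMRs, 4.76% lay in intron 1 of NM_001289916 and 0% in that of NM_001289917, both far shorter than NM_013646. The rank was 18 by gain DMRs per 100 kb and 19 by the share of CpGs, in place of 2.

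No paired analysis was possible because the list gives only group means, and for the same reason no sample was left out in turn. The depth behind a DMR is unknown, so the precision of a mean over 3 CpGs cannot be given, and coverage in the stretches with no listed DMR was not tested. Regions just under the 10 points or under 3 CpGs are not in the list.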

Other observations

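The deposited list names the nearest promoter of each DMR, and for none of the 21 *Rora* DMRs was it a *Rora* transcript. For 15 of them (13 gains and both losses) it was that of *9530091C08Rik*, a long non-coding RNA gene within intron 1 of *Rora* on the same strand (chr9:68765346-68773322), at distances of 21.5 to 275 kb. For the other 6, all gains, it was the promoter of *Ice2* downstream of *Rora*, at 14.9 to 259 kb. *9530091C08Rik* itself held 0 DMRs. A count of DMRs per gene by the promoters named in the list would therefore give *Rora* 0 and these neighbours the whole cluster. This 0 depends on the promoters that the list names. DMR 19 lay 1.95 kb past the start of the *Rora* transcript NM_001289916, and the list still names *Ice2* for it. With the transcript starts used here, the count for *Rora* would not be 0.

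The gain DMRs of *Rora* were close to all gain DMRs in GC content and CpG density, and a larger share of them held bases marked as repeat. The median GC content of the region was 47.9%, beside 50%, and the median number of CpGs in the surrounding 1 kb was 11, beside 13. In 11 of the 19 (57.9%) at least 1 base was marked as repeat in the reference, beside 44.6% of all gain DMRs. The median share of such bases was 13.2%, beside 0%, whereas the upper quartile was 17.4%, beside 20.3%. DMR 11 had the largest repeat share, 57.0% of its 200 bp. Over the whole gene body 20.5% of the bases were marked so and the GC content was 44.8%.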
